A study of Mus musculus with 15 samples.

Results

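The Toll-like receptors are germline-encoded sensors of microbial products. The members taken here are the 10 genes Tlr1 to Tlr9 and Tlr13, chosen by gene symbol in the deposited count table and so 10 of its 40510 genes. Of the 10, 9 passed the filter on low counts and Tlr9 did not. Toll-like receptors bind their ligands with an ectodomain of leucine-rich repeats and pass the signal through a cytoplasmic TIR domain to the adaptors MyD88 or TRIF, which leads to NF-kappaB and interferon regulatory factors. One branch sits at the cell surface and binds bacterial lipids and proteins, and the other sits in endosomes, is carried there by UNC93B1, and binds nucleic acids. Alveolar macrophages are the phagocytes that meet inhaled microbes first, and they are known for restrained responses to such ligands at rest.

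The cells came from bronchoalveolar lavage of untreated C57BL/6 mice and were sorted as CD45+ Ly6G- SiglecF+ CD11c+, then divided by surface CD11b. Some mice were knockouts (KO) of Cybb, labelled CGD/CYBB KO, which lack the catalytic subunit of the phagocyte NADPH oxidase and are a model of chronic granulomatous disease; the others were wild type (WT). There were 5 groups of 3 libraries: CD11b-high KO cells at 12 weeks, CD11b-low KO cells at 12 weeks, CD11b-low WT cells at 12 weeks, CD11b-low KO cells at 4 weeks and CD11b-low WT cells at 4 weeks. Each library was made with a SMARTer kit from about 50000 cells of 2 to 3 pooled mice, and no CD11b-high WT group was among the samples. All groups share the strain and the sort, and the labels name no cell type to which the knockout was limited.

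The libraries held 22856331 to 36458893 counts, with a median of 32415469. Cybb stood at 129 to 221 CPM in the 9 KO libraries and 899 to 2319 CPM in the 6 WT libraries, and no source used here says where the gene was disrupted. The 12 alveolar macrophage markers listed (among them Siglecf, Marco, Chil3 and Pparg) were all detected in every group, and summed to between 36800 and 65500 CPM. Levels below are CPM, a gene's counts per 1000000 counts of its library, scaled by TMM, which sets each library's total by the bulk of its genes. A difference passed when edgeR's quasi-likelihood test, two-sided and run over 13284 genes, gave an adjusted p under 0.05. In sorted bulk cells, a difference in the number of expressing cells and one in RNA per cell cannot be told apart.

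Of the surface branch, Tlr2 forms dimers with Tlr1 or Tlr6 to bind lipopeptides, Tlr4 with MD-2 binds lipopolysaccharide, and Tlr5 binds flagellin. Of the endosomal branch, Tlr3 binds double-stranded RNA, Tlr7 binds single-stranded RNA, Tlr9 binds CpG DNA and Tlr13, a gene that mice have and humans lack, binds a sequence of bacterial 23S ribosomal RNA. Tlr8 binds RNA breakdown products in humans, and its mouse form responds poorly to the same ligands. Tlr7, Tlr8 and Tlr13 lie on the X chromosome: Tlr13 at chrX:106143204-106160493 on the plus strand, Tlr8 at chrX:167242696-167264329 and Tlr7 at chrX:167304929-167330558, both on the minus strand, by GENCODE M21 on GRCm38. Tlr1 and Tlr6 are neighbours on chromosome 5, Tlr2 is on chromosome 3, Tlr3 on chromosome 8, Tlr4 on chromosome 4, Tlr5 on chromosome 1 and Tlr9 on chromosome 9.

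The DNA just upstream of the start is shown for Tlr13, Tlr8 and Tlr5. These fell with age in WT cells (below), and RefSeq gives each a window with bases before the annotated gene. The window of Tlr13 runs into the GENCODE gene and is cut at the GENCODE start, which leaves 179 of 250 bases. Tlr7 is named only. The RefSeq window of Tlr3, which also fell, lies inside the GENCODE gene and is not printed. Sequences are from RefSeq on GRCm38.p6, read 5′ to 3′ on the strand of the gene. They are chrX:106143025-106143203 on the plus strand for Tlr13 (179 bases), chrX:167264330-167264579 on the minus strand for Tlr8 (250 bases) and chr1:182954538-182954787 on the plus strand for Tlr5 (250 bases). Capitals mark matches, on either strand, to 5 short motifs: GAGGAA for ETS factors such as PU.1, TGANTCA for AP-1, TTNCNNAA for C/EBP, an IRF element and an NF-kappaB element.
Tlr13: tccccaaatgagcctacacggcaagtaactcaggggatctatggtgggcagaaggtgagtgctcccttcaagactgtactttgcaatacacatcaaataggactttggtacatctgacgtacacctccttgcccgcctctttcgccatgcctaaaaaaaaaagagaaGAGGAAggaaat
Tlr8: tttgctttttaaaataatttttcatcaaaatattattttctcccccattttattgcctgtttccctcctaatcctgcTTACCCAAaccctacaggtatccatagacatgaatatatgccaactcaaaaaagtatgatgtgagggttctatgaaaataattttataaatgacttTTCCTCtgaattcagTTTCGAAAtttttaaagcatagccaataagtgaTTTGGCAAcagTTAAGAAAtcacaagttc
Tlr5: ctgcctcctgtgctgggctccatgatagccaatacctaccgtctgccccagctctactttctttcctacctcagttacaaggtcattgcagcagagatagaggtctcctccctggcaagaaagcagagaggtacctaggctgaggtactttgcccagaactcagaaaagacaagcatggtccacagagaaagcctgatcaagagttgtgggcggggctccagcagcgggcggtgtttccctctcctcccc
Tlr13 held 1 GAGGAA, 83 bases before its RefSeq start, and Tlr8 held 1 on the other strand, 77 bases before its start. The Tlr3 window held 1 NF-kappaB element, 211 bases before its start, and 2 matches to TTNCNNAA, 126 and 95 bases before it. Tlr8 also held 5 matches to TTNCNNAA, of which a pair share 1 place read on both strands. The Tlr5 window held none of the 5 motifs, and no match in the windows shown was to the IRF, NF-kappaB or AP-1 motif. Among all 32851 RefSeq windows of 250 bases, 23.3% held GAGGAA, 36.8% TTNCNNAA, 2.98% the IRF element, 1.21% the NF-kappaB element and 6.75% TGANTCA. In the sequences shown, matches to different motifs did not overlap. These matches describe letters, not bound sites.

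Per kilobase of exon, Tlr2 was the most abundant member in each of the 5 groups. It stood at 118 ± 17.1 CPM per kb in CD11b-high KO cells, 130.0 ± 48.9 in CD11b-low KO and 99.9 ± 28.9 in WT cells at 12 weeks, and 120.1 ± 1.61 in KO and 112 ± 6.30 in WT cells at 4 weeks (SD, n = 3 each). Its share of the members' summed CPM ran between 47.2% and 70.6% over the 15 libraries. Below it, Tlr4, Tlr7 and Tlr13 formed a middle tier and Tlr8, Tlr6, Tlr5 and Tlr3 a lower one.

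In CD11b-high KO cells, Tlr13 at 20.5 ± 4.48, Tlr4 at 18.2 ± 7.66 and Tlr7 at 17.7 ± 2.04 CPM per kb differed from one another by less than their spread. In CD11b-low KO cells at 12 weeks, Tlr4 at 20.5 ± 14.1, Tlr7 at 13.9 ± 2.62 and Tlr13 at 12.8 ± 4.01 CPM per kb differed by less than the SD of Tlr4, and Tlr7 and Tlr13 by less than either SD. In WT cells at 12 weeks the levels were 12.1 ± 5.17 CPM per kb for Tlr4, 6.99 ± 1.77 for Tlr7 and 4.51 ± 1.86 for Tlr13, where Tlr4 and Tlr7 differed by less than the SD of Tlr4 and Tlr7 and Tlr13 by more than either SD. At 4 weeks Tlr4 stood above both in each genotype, at 24.3 ± 2.78 CPM per kb in KO and 25.5 ± 1.77 in WT cells. Tlr7 and Tlr13 stood at 13.9 ± 1.5 and 12.2 ± 1.88 CPM per kb in KO cells and at 13.3 ± 1.62 and 12.9 ± 3.16 in WT cells of that age.

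The place of Tlr8 in the order moved with age. At 4 weeks it stood at 7.02 ± 0.211 CPM per kb in KO and 9.06 ± 2.93 in WT cells, above Tlr6, at 3.93 ± 0.279 in KO and 4.08 ± 0.535 in WT cells. At 12 weeks Tlr8 stood beside Tlr6 within the spread in all groups, for example at 2.44 ± 0.390 CPM per kb for Tlr8 and 2.14 ± 1.14 for Tlr6 in WT cells. Tlr5 ran between 1.08 and 3.47 CPM per kb over the group means and Tlr3 between 0.457 and 1.14. Tlr1 and Tlr9 were at or near 0.

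**Figure D1:**
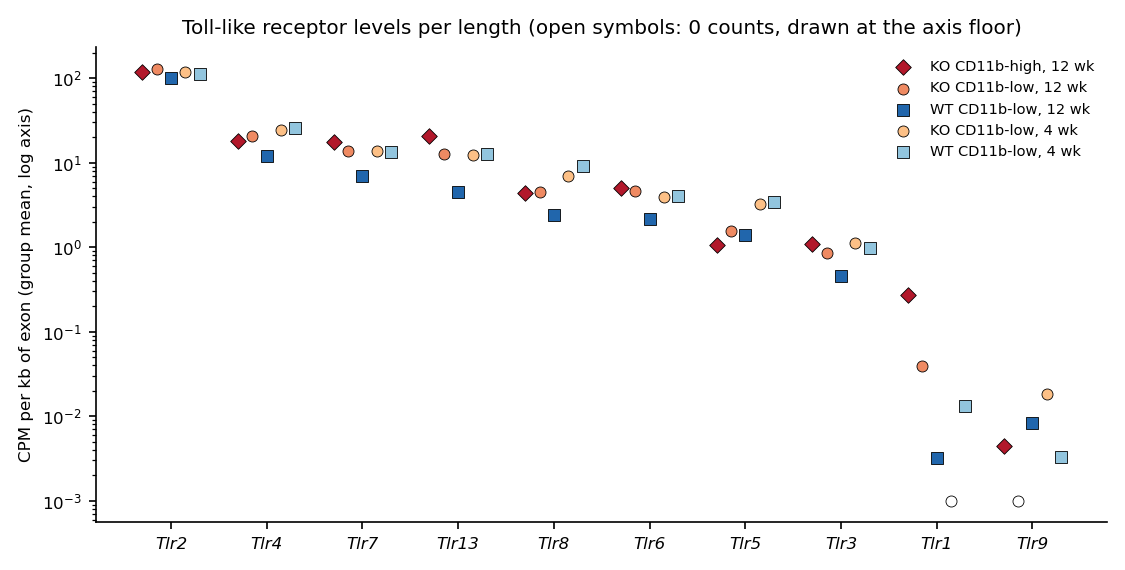
Mean level of each Toll-like receptor gene per kilobase of exon (CPM per kb, log axis), with 1 symbol per group of 3 libraries and open symbols for groups at 0 counts. Tlr2 stands highest in each group, and Tlr1 and Tlr9 lie below all others.

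Tlr9 had 12 counts over the 15 libraries, was at 0 in 9 of them and reached at most 7. A count of 3, the upper limit that 0 allows, stood for 0.0718 to 0.141 CPM by library, so a level below that was not detectable at this depth. Tlr1 had 85 counts and was at 0 in 8 libraries. The exons of Tlr1 and Tlr6 share 454 stretches of 50 bases, 13.6% of those of Tlr1 and 12.3% of those of Tlr6, so reads there could be dropped or split by the counting. Tlr3 shares 381 exon bases with Gm45542, a gene on the opposite strand; the counting is not stated to use strand, so reads of the pair cannot be told apart there. Relatives outside the 10, Tlr11 and Tlr12, had 69 and 15 counts.

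How CD11b-low macrophages of adult mice differ without NOX2 was addressed by KO against WT cells at 12 weeks. Tlr13 and Tlr7, both endosomal RNA sensors, rose in KO cells. All 8 members above 1 CPM had fold changes over 1, and the other 6 did not pass. With 2 of 9 tested members called, all higher, the count over all genes was 346 higher, or 2.6% of those tested.

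Tlr13 stood at 35.9, 69.4 and 59.7 CPM in KO replicates 1 to 3, against 27.4, 11.4 and 19.4 CPM in WT replicates 1 to 3. Every KO library lay above every WT library, and the lowest KO and highest WT libraries were close together. On the log2 scale Tlr13 was 1.5 higher in KO cells (SE 0.32, adjusted p = 0.0142). Tlr7 stood at 44.8, 59.4 and 65.6 CPM in KO libraries, against 30.8, 20.5 and 34.3 CPM in WT libraries, again with no overlap. Its log2 fold change was 0.99 (SE 0.23, adjusted p = 0.0262).

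The other endosomal members were at lower levels. Tlr3 stood at 4.15, 5.28 and 3.88 CPM in KO libraries, against 3.10, 1.85 and 2.19 CPM in WT libraries. The groups did not overlap, yet the test did not pass (log2 fold change 0.90, SE 0.33, adjusted p = 0.140). Libraries of the groups did not overlap, with KO higher, for Tlr3, Tlr7 and Tlr13 among members and for 9.82% of all genes tested. Tlr8 stood at 9.73, 17.9 and 21.4 CPM in KO libraries, against 8.70, 7.39 and 10.2 CPM in WT libraries. One KO library lay inside the WT range and the others above it, and the difference of 0.90 on the log2 scale did not pass (SE 0.32, adjusted p = 0.133).

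Surface members spread widely between KO libraries. Tlr6 stood at 8.94, 18.5 and 24.9 CPM in KO libraries, against 3.10, 9.84 and 10.95 CPM in WT libraries (log2 fold change 1.13, SE 0.39, adjusted p = 0.124). Tlr4 stood at 38.8, 108 and 195 CPM in KO libraries, against 42.6, 59.7 and 98.6 CPM in WT libraries (log2 fold change 0.77, SE 0.44, adjusted p = 0.329). The groups overlapped for both genes, and 1 KO library of Tlr4 lay below all WT libraries. Tlr2 ran between 242 and 537 CPM in KO libraries and between 228 and 397 CPM in WT libraries (log2 fold change 0.38, SE 0.27, adjusted p = 0.431). Tlr5 ran between 3.66 and 10.4 CPM in KO libraries and between 5.13 and 8.86 CPM in WT libraries (log2 fold change 0.16, SE 0.34, adjusted p = 0.807).

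**Figure D2:**
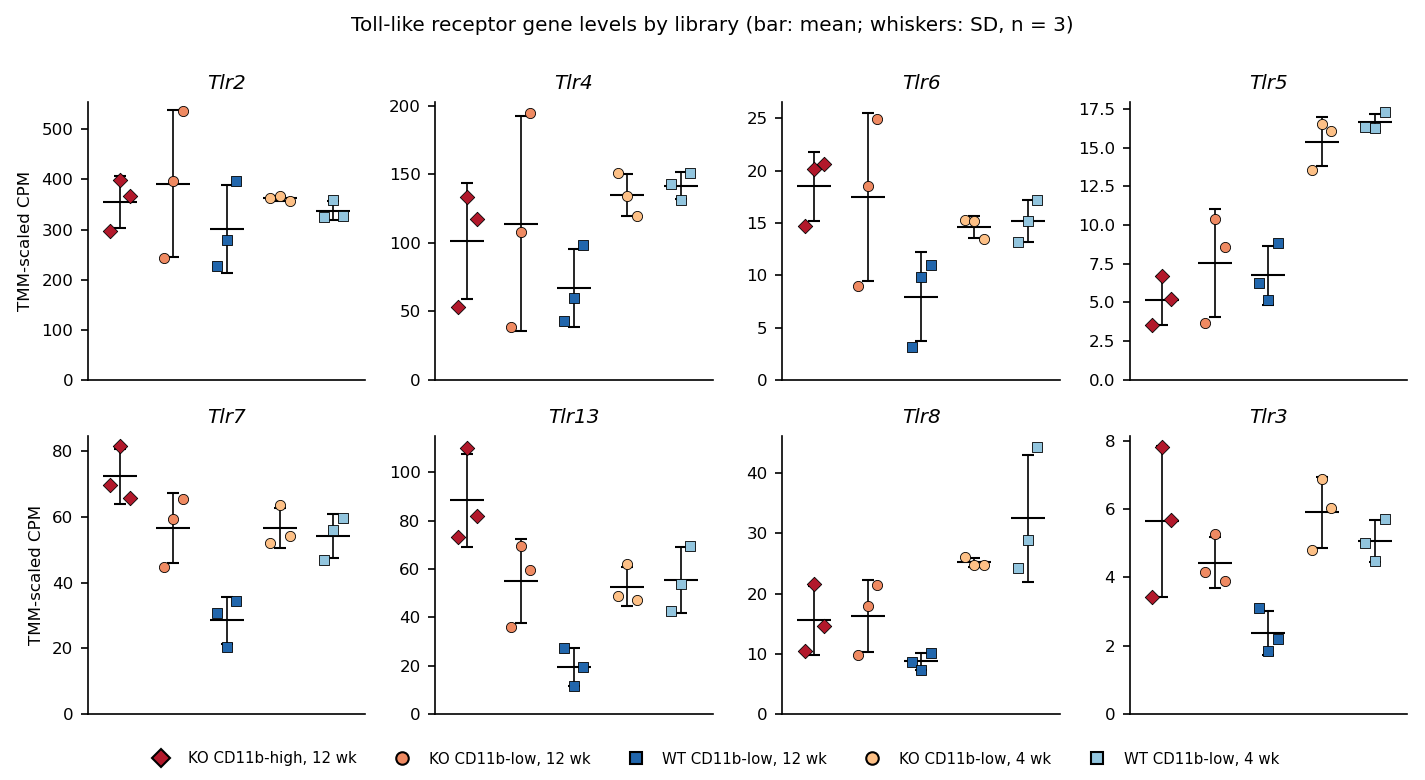
TMM-scaled CPM of the 8 members above 1 CPM in every library, with 1 point per library, a bar at the mean and whiskers of 1 SD (n = 3), each panel with its own axis from 0. Tlr7 and Tlr13 of 12-week WT cells lie below those of all other groups, while Tlr2 overlaps between groups.

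Both calls rested on few libraries. The adjusted p of Tlr13 was 0.0834 without KO replicate 2 and 0.0586 without WT replicate 2, and that of Tlr7 was 0.0865 and 0.0831 without KO replicates 2 and 3 and 0.0940 without WT replicate 2. In a fit of these 6 libraries alone it was 0.0850 for Tlr13 and 0.279 for Tlr7, with log2 fold changes of 1.5 and 0.98. KO replicate 1 bore on members that did not pass: without it the adjusted p was 0.0432 for Tlr6 and 0.0487 for Tlr8. Tlr6 also passed without the filter on low counts (adjusted p = 0.0140).

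The libraries also differed in Xist and in markers of other cells, and the labels do not give the sex of the mice. Xist, made from the inactive X chromosome of females, was over 1 CPM in 2 of 3 KO and in 0 of 3 WT libraries at 12 weeks. Between the libraries at or under 1 CPM, 1 KO and 3 WT, the log2 fold changes were 1.84 for Tlr13, 1.06 for Tlr7 and 1.04 for Tlr8, and with a lone KO library they have no replicate check. Of 8 tested T and NK cell markers, 5 rose in KO cells, and the 9 listed summed to 37.2 to 105 CPM in KO and 1.63 to 4.81 CPM in WT libraries. Conventional dendritic cell markers (8 listed, none past the test) summed to 48.0 to 60.8 CPM in KO and 19.6 to 31.9 CPM in WT libraries. Ccl22 made up most of these sums (means 44.4 and 15.5 CPM). Of the 8, 6 had positive fold changes, while Batf3 (4.33 and 5.70 CPM) and Zbtb46 (0.728 and 1.27 CPM) had lower means in KO cells. Of 2 tested eosinophil markers Ear6 rose. The 5 listed summed to 123 to 617 CPM in KO and 10 to 17.1 CPM in WT libraries, with Il5ra and Epx at 0 in both. The 8 B cell markers summed to 7.70 to 29.6 CPM in KO and 2.56 to 9.30 CPM in WT libraries, with Pax5 at 0. Blk among them passed the filter on low counts only through 12-week KO libraries (538 counts in CD11b-low KO, 13 in WT cells). Its call is not read as a result. Ly6c2, a monocyte marker, averaged 1.06 CPM in KO and 0.196 CPM in WT cells. Its call is not read as a result either, since Ly6c2 too passed the filter only through 12-week KO libraries. Monocyte markers summed to 548 to 704 CPM in KO and 433 to 663 CPM in WT libraries. Most of these sums came from Cd14 (means 463 and 343 CPM) and Fcgr4 (232 and 236 CPM), so they say little of the rarer markers. Of 6 tested neutrophil markers S100a8 rose, and the 8 listed summed to 82.4 to 150 CPM in KO and 53.3 to 75.9 CPM in WT libraries, with Ly6g at 0 in both. Red cell markers, 4 of 5 lower, summed to 67.9 to 123 CPM in KO and 493 to 1350 CPM in WT libraries. Of the alveolar macrophage markers, Ear1 and Ear2 fell in KO cells. Mitochondrial genes took 0.505% to 0.801% of counts in KO and 1.13% to 1.29% in WT libraries, with no overlap. The part of these cells and of this share in the receptor differences was not tested.

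At 4 weeks, KO and WT CD11b-low cells were close for each member with a level. By edgeR 0 of 9 members passed, none of the 8 above 1 CPM did by DESeq2 or limma voom, and none had an unadjusted p under 0.05; 0.0979% of all genes passed. Tlr13 stood at 48.8, 62.0 and 47.2 CPM in KO libraries, against 42.5, 53.9 and 69.6 CPM in WT libraries. Tlr7 stood at 52.2, 63.6 and 54.2 CPM in KO libraries, against 47.0, 56.1 and 59.7 CPM in WT libraries. The KO libraries fell inside or beside the WT range for both, with log2 fold changes of -0.07 (95% interval -0.72 to 0.58) and 0.06 (-0.42 to 0.54).

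Tlr8 stood at 26.1, 24.7 and 24.8 CPM in KO libraries, against 24.3, 28.8 and 44.4 CPM in WT libraries, where 1 library lay far above the rest. The log2 fold change was -0.37 (95% interval -1.03 to 0.29). For Tlr2, Tlr3, Tlr4, Tlr5 and Tlr6 it ran between -0.11 and 0.22, with intervals that reached from -0.99 to 0.88. Xist was over 1 CPM in 1 KO and 2 WT libraries at this age. The WT library with 44.4 CPM of Tlr8, replicate 3, had the most Xist of all libraries (33.0 CPM). It had 0.847 CPM of Eif2s3y and 0.363 CPM of Ddx3y, both Y-linked, against at least 43.78 and 16.35 CPM in every other library. It was also the highest of its group for Tlr7 and Tlr13. The part of this in the receptor levels was not tested. Red cell markers, 5 of 5 lower, summed to 52.5 to 171 CPM in KO and 1810 to 8300 CPM in WT libraries.

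WT cells were then compared between 12 and 4 weeks of age, in different mice. Tlr8, Tlr13, Tlr5, Tlr3 and Tlr7 fell at 12 weeks: all 4 tested members of the endosomal branch and 1 of 5 of the surface branch. The 5 calls compare with 1115 of 13284 genes lower, or 8.39%. Tlr2 had the smallest difference.

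Tlr8 averaged 8.75 ± 1.40 CPM at 12 weeks and 32.5 ± 10.5 CPM at 4 weeks (SD, n = 3 each), with no overlap. Its log2 fold change was -1.89 (SE 0.33, adjusted p = 0.00351), the largest fall among members. Tlr13 averaged 19.4 ± 8.01 CPM at 12 weeks and 55.3 ± 13.6 CPM at 4 weeks (log2 fold change -1.51, SE 0.32, adjusted p = 0.00602). Tlr7 averaged 28.5 ± 7.21 CPM at 12 weeks and 54.3 ± 6.60 CPM at 4 weeks (log2 fold change -0.93, SE 0.23, adjusted p = 0.0123). In each of these X-linked genes the highest 12-week library lay below the lowest 4-week library.

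Tlr3 stood at 3.10, 1.85 and 2.19 CPM at 12 weeks, against 4.996, 4.50 and 5.71 CPM at 4 weeks (log2 fold change -1.09, SE 0.33, adjusted p = 0.0291). The flagellin receptor gene Tlr5 stood at 6.28, 5.13 and 8.86 CPM at 12 weeks, against 16.4, 16.3 and 17.3 CPM at 4 weeks (log2 fold change -1.30, SE 0.34, adjusted p = 0.0149). The 4-week libraries of Tlr5 lay within about 1 CPM of each other, and the 12-week libraries were all far below them.

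Tlr4 and Tlr6 stood lower at 12 weeks in every library but did not pass. Tlr4 stood at 42.6, 59.7 and 98.6 CPM at 12 weeks, against 143, 131 and 151 CPM at 4 weeks (log2 fold change -1.08, SE 0.44, adjusted p = 0.100). Tlr6 stood at 3.10, 9.84 and 10.95 CPM at 12 weeks, against 13.2, 15.2 and 17.2 CPM at 4 weeks (log2 fold change -0.93, SE 0.39, adjusted p = 0.107). With these 2, the libraries of 7 members did not overlap, all lower at 12 weeks, and 18.7% of all genes tested did the same. Tlr2 overlapped, at 228, 278 and 397 CPM at 12 weeks and 326, 359 and 326 CPM at 4 weeks (log2 fold change -0.16, 95% interval -0.73 to 0.40).

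Tlr8 and Tlr13 kept their calls when any 1 library was left out, and the other 3 did not. Without WT 12-week replicate 2 the adjusted p was 0.0629 for Tlr5, 0.0546 for Tlr7 and 0.104 for Tlr3, and without WT 4-week replicate 3 it was 0.0502, 0.0543 and 0.0981. Tlr3 was also lost without WT 12-week replicate 3 (0.0702), WT 4-week replicate 1 (0.0711) or replicate 2 (0.0520). In a fit of these 6 libraries alone the adjusted p was 0.0666 for Tlr3 and 0.0644 for Tlr7. Without the filter on low counts, Tlr4 (0.00365) and Tlr6 (0.0406) passed and Tlr3 (0.0583) did not. Xist was over 1 CPM in 0 of 3 WT libraries at 12 weeks and in 2 of 3 at 4 weeks. Of these 2, replicate 3 also had almost no RNA of Y-linked Eif2s3y and Ddx3y. The only 4-week WT library with Xist at or under 1 CPM, replicate 2, had 28.8 CPM of Tlr8, 53.9 CPM of Tlr13 and 56.1 CPM of Tlr7, each above all 12-week WT libraries. Marker genes of red cells, 5 of 5 lower at 12 weeks, summed to 493 to 1350 CPM at 12 weeks and 1810 to 8300 CPM at 4 weeks in WT libraries, and the mitochondrial share of counts was 1.13% to 1.29% at 12 weeks and 0.738% to 1.17% at 4 weeks. The part of the red cells, of this share and of Xist in the age differences was not tested.

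**Figure D3:**
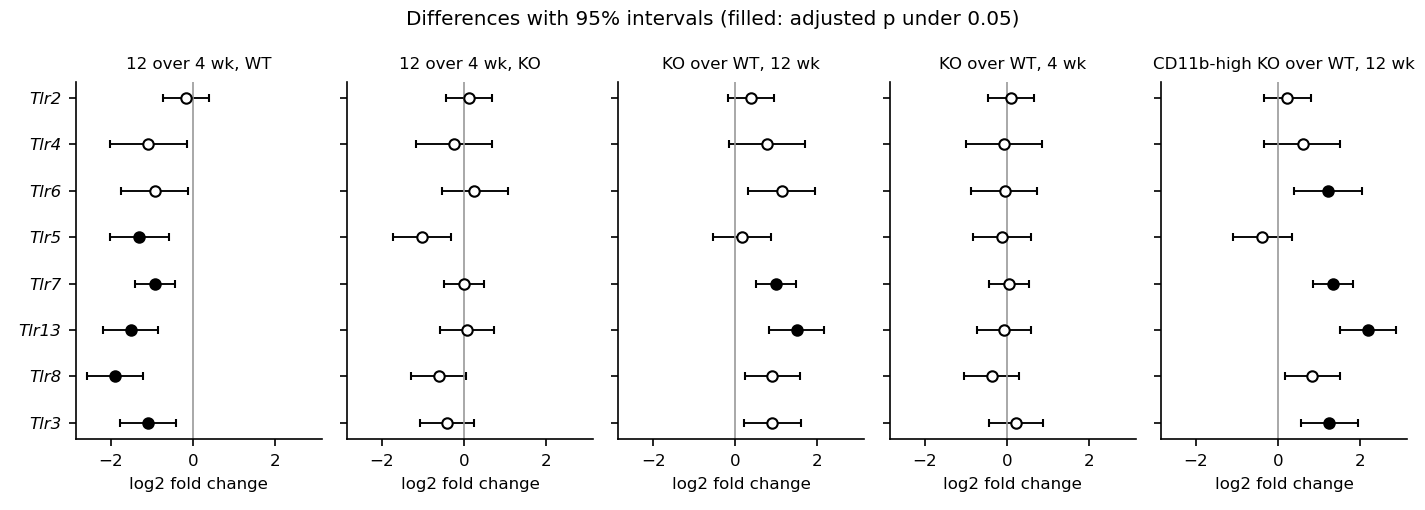
Log2 fold changes of 8 members with 95% intervals in 5 comparisons, titled above each panel, with filled points for an adjusted p under 0.05. In the 12 over 4 week panel of WT cells 5 points are filled and all 8 lie below 0, and in the KO over WT panel at 4 weeks none is filled.

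KO CD11b-low cells were compared between the same ages. No member passed by edgeR, against 6.89% of all genes, and of the 8 members above 1 CPM only Tlr5 had an unadjusted p under 0.05. Tlr13 averaged 55.0 ± 17.2 CPM at 12 weeks and 52.7 ± 8.10 CPM at 4 weeks (SD, n = 3 each), a difference of 0.06 on the log2 scale (95% interval -0.59 to 0.72). Tlr7 averaged 56.6 ± 10.7 CPM at 12 weeks and 56.7 ± 6.11 CPM at 4 weeks (log2 fold change 0.00, 95% interval -0.48 to 0.48).

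Tlr5 in KO cells stood at 3.66, 10.4 and 8.58 CPM at 12 weeks, against 13.6, 16.5 and 16.1 CPM at 4 weeks. All 12-week libraries lay below all 4-week libraries (log2 fold change -1.03, SE 0.34, adjusted p = 0.0701). It passed by DESeq2 (adjusted p = 0.0409) and by limma voom (0.0127), and by edgeR without KO 12-week replicate 2 (0.0332). Tlr8 averaged 16.3 ± 5.99 CPM at 12 weeks and 25.2 ± 0.756 CPM at 4 weeks, also without overlap (log2 fold change -0.62, SE 0.31, adjusted p = 0.229). Only Tlr5 and Tlr8 among members were lower at 12 weeks with no overlap between KO libraries, as were 19.6% of all genes. Of 8 tested T and NK cell markers 6 rose with age in KO cells, and the 9 listed summed to 37.2 to 105 CPM at 12 weeks and 1.5 to 2.9 CPM at 4 weeks. Eosinophil markers summed to 123 to 617 against 16.4 to 39.2 CPM, and B cell markers to 7.7 to 29.6 against 0.768 to 1.54 CPM. Conventional dendritic cell markers, mostly Ccl22, summed to 48 to 60.8 against 23 to 28 CPM, and monocyte markers to 548 to 704 against 505 to 541 CPM. No listed marker class was lower at 12 weeks without overlap. The part of these cells was not tested.

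The difference between the age changes of KO and WT cells was tested as an interaction, positive where the KO change with age was the higher one. No member passed by edgeR, against 0.248% of all genes, and Tlr6, Tlr7, Tlr8 and Tlr13 of the 8 above 1 CPM had an unadjusted p under 0.05. Tlr13 had the smallest p of the 4, with an estimate of 1.57 (SE 0.44, adjusted p = 0.218). It passed by DESeq2 (adjusted p = 0.0480), by limma voom (0.0297) and without the filter on low counts (0.0135). The estimate was 0.93 (SE 0.32, adjusted p = 0.389) for Tlr7, 1.27 (SE 0.45, adjusted p = 0.391) for Tlr8 and 1.18 (SE 0.54, adjusted p = 0.584) for Tlr6. A genotype difference in the age change was thus not established by edgeR for any member. These comparisons share libraries, so their values are set side by side and not as separate support.

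CD11b-high KO cells, sorted for more of the integrin chain that Itgam encodes, were compared with CD11b-low KO cells of the same age. No member passed by edgeR (0.693% of all genes did), and of the 8 members above 1 CPM only Tlr13 had an unadjusted p under 0.05. Tlr13 stood at 73.3, 110.1 and 81.7 CPM in CD11b-high libraries, against 35.9, 69.4 and 59.7 CPM in CD11b-low libraries. Every CD11b-high library lay above every CD11b-low library, with a log2 difference of 0.68 (SE 0.31, adjusted p = 0.469). The replicate numbers paired these libraries. A fit of these libraries alone with the replicate block called 252 genes, against 92 in the fit of all 15 libraries. Tlr13 stayed outside the threshold with the block (0.73, adjusted p = 0.0764).

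Tlr7 stood at 69.8, 81.7 and 65.7 CPM in CD11b-high libraries, against 44.8, 59.4 and 65.6 CPM in CD11b-low libraries (log2 fold change 0.36, SE 0.23, adjusted p = 0.692). The lowest CD11b-high and the highest CD11b-low library nearly met. Of the 8 members above 1 CPM, Tlr7 and Tlr13 were higher in CD11b-high cells with no overlap, as were 7.91% of all genes. Tlr2, Tlr4, Tlr6 and Tlr8 had log2 fold changes between -0.17 and 0.08, Tlr3 had 0.34 and Tlr5 had -0.55 (SE 0.34, adjusted p = 0.670). Neutrophil markers summed to 294 to 452 CPM in CD11b-high and 82.4 to 150 CPM in CD11b-low libraries, where 1 of 6 tested, S100a9, rose. Conventional dendritic cell markers, mostly Ccl22 and Ccr7, summed to 86.5 to 380 against 48 to 60.8 CPM. Monocyte markers, mostly Cd14 and Fcgr4, summed to 761 to 816 against 548 to 704 CPM. Eosinophil markers overlapped, at 299 to 999 against 123 to 617 CPM, as did T and NK cell markers, at 27.7 to 79.8 against 37.2 to 105 CPM. The part of these cells in the receptor differences was not tested.

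Tlr1, the partner of Tlr2 for triacyl lipopeptides, had 10, 35 and 21 counts in CD11b-high KO libraries, against 6, 7 and 0 counts in CD11b-low KO libraries and 0, 1 and 0 counts in WT libraries at 12 weeks. It passed the filter on low counts only through the CD11b-high group, so no test of it is given in comparisons of that group. There its level was 0.900 ± 0.653 CPM (SD, n = 3). Per scaled library, the CD11b-high total of 66 counts was 6.3 times that of CD11b-low KO cells (13 counts, exact 95% counting interval 3.44 to 12.4) and 66.0 times that of WT cells (1 count, interval 11.4 to 2650.0). These intervals cover counting error only.

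Against CD11b-low WT cells at 12 weeks, CD11b-high KO cells had 4 of the 8 members above 1 CPM higher, Tlr13, Tlr7, Tlr3 and Tlr6, and none lower. Over all genes 1226 rose, or 9.23% of those tested. Genotype and CD11b class differ together here and cannot be told apart. Tlr13 averaged 88.4 ± 19.3 CPM in CD11b-high KO cells and 19.4 ± 8.01 CPM in WT cells (SD, n = 3 each), a 4.55-fold difference (log2 fold change 2.19, SE 0.33, adjusted p = 2.4e-04). Tlr7 averaged 72.4 ± 8.32 CPM in CD11b-high KO cells and 28.5 ± 7.21 CPM in WT cells (log2 fold change 1.34, SE 0.23, adjusted p = 9.4e-04). These 2 calls held without any 1 library.

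Tlr3 stood at 3.42, 7.83 and 5.67 CPM in CD11b-high KO libraries, against 3.10, 1.85 and 2.19 CPM in WT libraries (log2 fold change 1.24, SE 0.33, adjusted p = 0.0173). Tlr6 stood at 14.7, 20.2 and 20.7 CPM in CD11b-high KO libraries, against 3.10, 9.84 and 10.95 CPM in WT libraries (log2 fold change 1.22, SE 0.39, adjusted p = 0.0450). Neither gene's groups overlapped. Both calls were lost on leaving out some libraries. Without CD11b-high replicate 2 the adjusted p was 0.111 for Tlr3 and 0.133 for Tlr6, and without WT replicate 2 it was 0.0667 for Tlr3 and 0.0573 for Tlr6. Without WT replicate 1 it was 0.0978 for Tlr6, and without CD11b-high replicate 3 it was 0.111 for Tlr6. In a fit of these 6 libraries alone it was 0.138 for Tlr3 and 0.161 for Tlr6.

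Tlr8 averaged 15.6 ± 5.69 CPM in CD11b-high KO cells and 8.75 ± 1.40 CPM in WT cells and did not overlap, but did not pass (log2 fold change 0.83, SE 0.32, adjusted p = 0.0902). Its adjusted p was 0.0414 without CD11b-high replicate 1 and 0.0431 by limma voom. Tlr4, Tlr2 and Tlr5 had log2 fold changes of 0.60, 0.23 and -0.39, with adjusted p of 0.394, 0.601 and 0.482. Non-overlap with the KO group higher was thus seen, among the 8 members above 1 CPM, for Tlr3, Tlr6, Tlr7, Tlr8 and Tlr13, as for 15.6% of all genes. The conventional dendritic cell markers, 3 of 8 higher, summed to 86.5 to 380 CPM in CD11b-high KO and 19.6 to 31.9 CPM in WT libraries. Most of these sums came from Ccl22 (means 132.5 and 15.5 CPM) and Ccr7 (64.2 and 3.60 CPM). The monocyte markers, mostly Cd14 and Fcgr4, summed to 761 to 816 CPM in CD11b-high KO and 433 to 663 CPM in WT libraries. Neutrophil markers, 5 of 6 tested higher, summed to 294 to 452 CPM in CD11b-high KO and 53.3 to 75.9 CPM in WT libraries, with Ly6g at 0 in both. Among the 5, Mmp9 passed the filter on low counts only through the CD11b-high group (204 counts there, 0 in WT cells). Its call is therefore not read as a result. T and NK cell markers, 6 of 8 tested higher, summed to 27.7 to 79.8 CPM in CD11b-high KO and 1.63 to 4.81 CPM in WT libraries. Eosinophil markers, 2 of 2 tested higher, summed to 299 to 999 CPM in CD11b-high KO and 10 to 17.1 CPM in WT libraries. Of the 5 listed, Epx was at 0 in both groups, and Il5ra and Ccr3 were at 0 in WT cells. Red cell markers, 4 of 5 lower, summed to 49.5 to 151 CPM in CD11b-high KO and 493 to 1350 CPM in WT libraries. The mitochondrial share of counts was 0.763% to 0.914% in CD11b-high KO and 1.13% to 1.29% in WT libraries. Xist was over 1 CPM in 2 of 3 CD11b-high KO and 0 of 3 WT libraries. The part of these in the differences was not tested.

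Across the 15 libraries, the members fell into patterns that their ligand class only partly followed. Tlr7 and Tlr13 moved together (Pearson r = 0.973 of log2(CPM + 1)), and Tlr3 tracked Tlr13 (r = 0.844) more closely than Tlr8 did (r = 0.604). Tlr2 tracked Tlr4 (r = 0.843) and Tlr6 (r = 0.814), and Tlr5 tracked Tlr8 (r = 0.829) while it had r = 0.168 with Tlr13. These values describe 15 libraries that share groups, depth and RNA composition, and carry no test.

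The genes with the pattern most like each of the 3 members of widest span were read from 7107 genes over the same libraries by the same r. For Tlr13 they were Tlr7, Itch (r = 0.959), Galnt7 (0.954), Tgoln1 (0.928) and Ipo5 (0.916). For Tlr8 they were Atp7a (r = 0.969), Far1 (0.957), Dcp1a (0.956), Nup160 (0.954) and Ap2b1 (0.953). For Tlr5 they were Adam22 (r = 0.985), Golm1 (0.975), Ddx10 (0.973), Cpt1a (0.968) and Matn2 (0.968).

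The ratio of Tlr7 to its X-linked neighbour Tlr8 varied with age. This ratio of CPM lay between 3.77 and 6.72 in CD11b-high KO libraries, between 3.06 and 4.6 in CD11b-low KO and between 2.77 and 3.55 in WT libraries at 12 weeks. At 4 weeks it lay between 2.00 and 2.57 in KO libraries and between 1.35 and 1.95 in WT libraries. Each 12-week library lay above each 4-week library, whatever the genotype. The ratio of Tlr13 to Tlr7 lay between 0.557 and 0.889 in WT libraries at 12 weeks and between 0.802 and 1.35 in the libraries of the other groups.

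**Figure D4:**
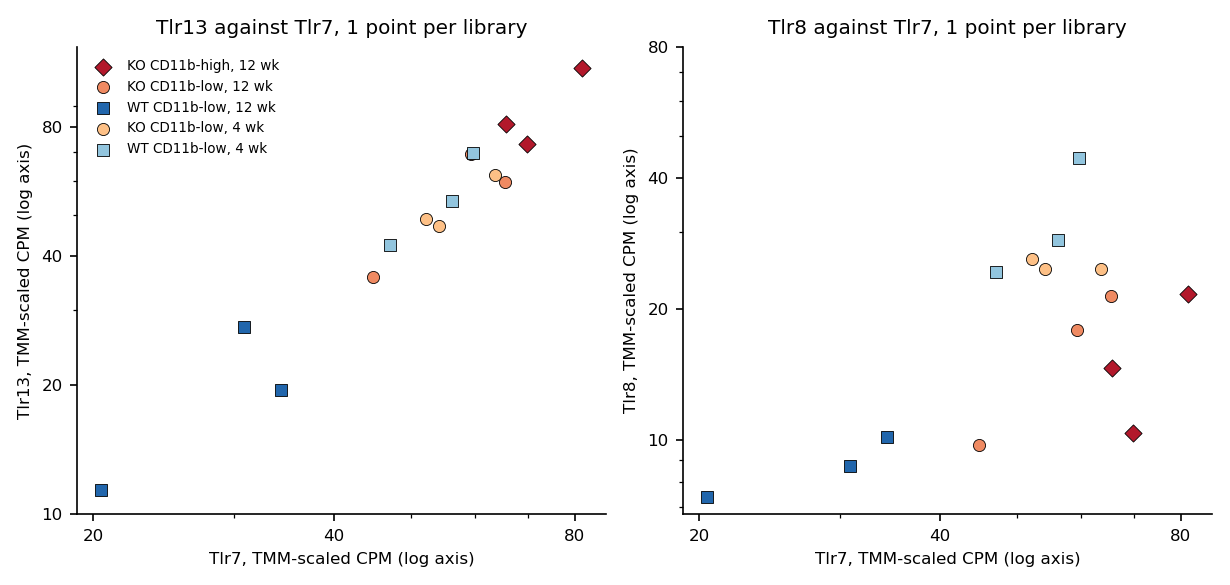
TMM-scaled CPM of Tlr13 (left) and Tlr8 (right) against Tlr7, both axes logarithmic, with 1 point per library and a symbol per group. Tlr13 climbs with Tlr7 through all groups, while Tlr8 at a given Tlr7 level lies higher in 4-week libraries (24.3 to 44.4 CPM) than in the 12-week libraries of similar Tlr7.

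The genes around the receptors were read from lists of coreceptors, chaperones, proteases, adaptors, transcription factors, negative regulators and targets. At 12 weeks in KO against WT CD11b-low cells, the genes between receptor and nucleus that passed all rose, against 2.6% of all genes. Of 6 tested coreceptors and relatives none passed: the lipopolysaccharide coreceptor gene Cd14 averaged 463 ± 117 CPM in KO and 343 ± 201 CPM in WT cells, and the scavenger receptor gene Cd36, which presents ligands to Tlr2 dimers, averaged 889 ± 269 CPM in KO and 365 ± 201 CPM in WT cells (adjusted p = 0.509 for Cd14 and 0.0667 for Cd36). Of 10 chaperone and trafficking genes only the tetraspanin gene Cd82 rose, to 249.7 ± 49.0 CPM in KO against 131 ± 35.1 CPM in WT cells (log2 fold change 0.93, SE 0.24, adjusted p = 0.0462). Unc93b1, which carries endosomal receptors out of the endoplasmic reticulum, averaged 129 ± 11.2 CPM in KO and 132 ± 66.7 CPM in WT cells (adjusted p = 0.955).

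Of 5 proteases that can cleave endosomal receptors, 2 rose in KO cells: Ctsl (log2 fold change 1.12, SE 0.28, adjusted p = 0.0391) and Ctsk (2.27, SE 0.34, adjusted p = 0.00102). Ctsk averaged 4985 ± 1576 CPM in KO and 1033 ± 358 CPM in WT cells. Of 20 adaptors and proximal kinases, only the interferon-branch kinases Tbk1 (log2 fold change 1.07, adjusted p = 0.0447) and Ikbke (3.09, adjusted p = 0.00130) rose. Myd88, the adaptor used by all members but Tlr3, averaged 120 ± 3.16 CPM in KO and 117 ± 44.4 CPM in WT cells (adjusted p = 0.954). None of 8 transcription factor genes passed. Of 12 negative regulators only Tnip1, an inhibitor of NF-kappaB signalling, rose (1.0, SE 0.20, adjusted p = 0.0109).

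Among targets, 3 of 12 MyD88-dependent genes rose in KO cells: the chemokine genes Ccl3 (log2 fold change 2.29, adjusted p = 0.0288) and Ccl4 (2.63, adjusted p = 0.00749) and the itaconate synthase gene Acod1 (3.05, adjusted p = 0.00786). Of 11 TRIF or interferon targets, Oasl2 (3.48, adjusted p = 0.00136) and Usp18 (2.53, adjusted p = 0.0112) rose, and all 11 had positive fold changes with a median of 1.41. The MyD88-dependent median was 0.56, and the median over all genes was -0.04. Other receptors and cytokines also drive these genes.

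At 4 weeks no gene of these lists passed between KO and WT cells by edgeR, where 13 of 13284 genes tested, or 0.0979%, passed. With age in WT cells, 5 of 20 adaptors and kinases fell, against 8.39% of all genes. They were Pik3ap1 (BCAP, log2 fold change -2.14, adjusted p = 0.00483), Ikbke (-1.63, adjusted p = 0.0233), Ticam2 (-0.78, adjusted p = 0.0498), Traf6 (-0.76, adjusted p = 0.0479) and Tirap (-0.74, adjusted p = 0.0363). The list's median was -0.57, against -0.03 over all genes. Of 12 negative regulators 3 fell, against the same 8.39%: Cyld (-1.31, adjusted p = 0.00357), Tollip (-1.15, adjusted p = 0.0257) and Rnf216 (-1.04, adjusted p = 0.00982). Spi1, which encodes PU.1, rose (0.75, adjusted p = 0.0410), as did Ly86, which encodes the partner of the receptor-like protein RP105 (0.92, adjusted p = 0.0152). None of 12 MyD88-dependent targets passed; of 11 interferon targets Ccl5 rose (2.57, adjusted p = 0.00368) and Rsad2 fell (-3.64, adjusted p = 0.00747).

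With age in KO CD11b-low cells, Pik3ap1 fell by 2.02 on the log2 scale (adjusted p = 0.00966) and Tab3 by 1.28 (adjusted p = 0.0277), the only adaptors to pass. The chaperone gene Cnpy3 and the negative regulator Rnf216 also fell, and Itgam rose. The proteases Ctsb, Ctsl and Ctsk rose, and so did 5 of 12 MyD88-dependent targets (Il1b, Ccl3, Ccl4, Il12b and Acod1) and 5 of 11 interferon targets (Ccl5, Ifit3, Isg15, Oasl2 and Usp18). Over all genes tested, 6.89% passed in either direction. The median of the interferon targets was 1.81, against -0.02 over all genes. Il1rl1, the last of the negative regulators to pass, had 88 counts at 12 weeks and 0 counts at 4 weeks. It passed the filter on low counts only through 12-week KO libraries, so its call is not read as a result.

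**Figure D5:**
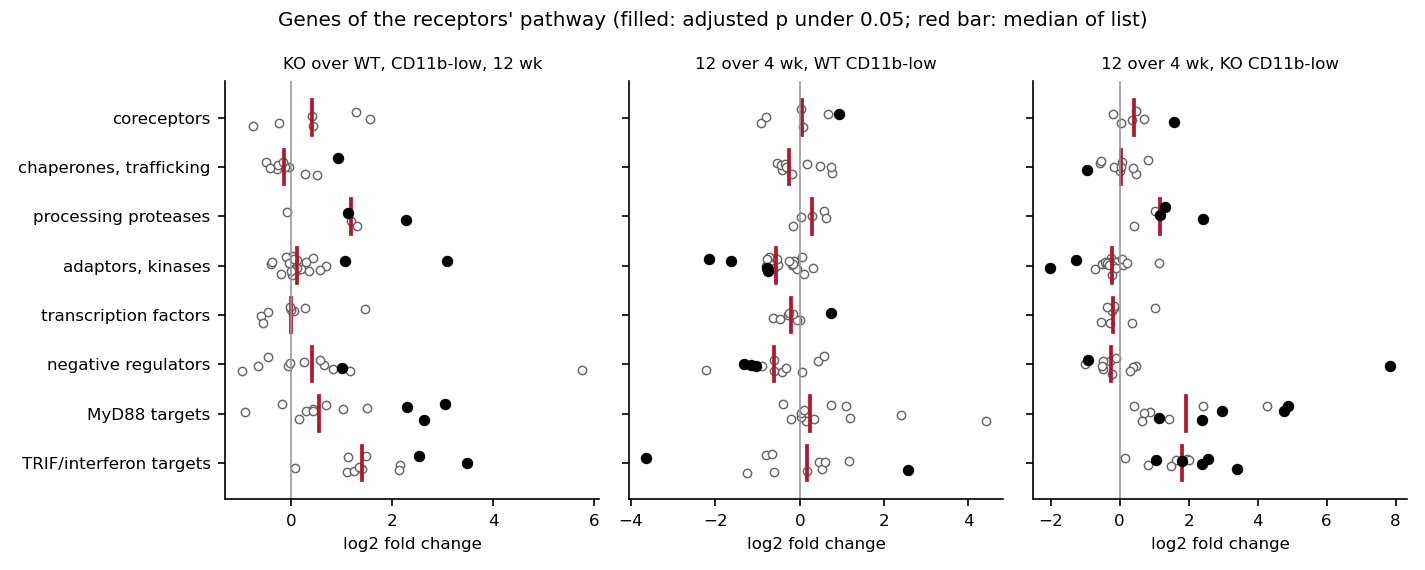
Log2 fold changes of the genes in 8 lists around the receptors, with 1 point per gene, filled at an adjusted p under 0.05, and a red bar at each list's median, in 3 comparisons. Adaptors have a median of -0.57 in the WT age panel, and the interferon targets have one of 1.81 in the KO age panel.

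In CD11b-high KO against WT cells at 12 weeks, 4 of 5 proteases (Ctsk, Ctsl, Ctsb and Lgmn), 7 of 12 MyD88-dependent targets and 9 of 11 interferon targets rose, with list medians of 1.72, 2.80 and 3.37 against -0.01 over all genes. Of all genes tested, 9.23% rose. Among the 7, Ptgs2 passed the filter on low counts only through the CD11b-high group (170 counts there, 6 in WT cells). Its call is therefore not read as a result, and the median of 2.80 includes it. Of 20 adaptors and kinases Irak2, Traf6, Tbk1 and Ikbke rose. Cd36 rose to 1470 ± 127 CPM in CD11b-high KO against 365 ± 201 CPM in WT cells (log2 fold change 2.01, adjusted p = 0.00160). Of the transcription factors, Irf7 (2.23, adjusted p = 0.00315) and Atf3 (1.49, adjusted p = 0.0386) rose and Spi1 fell (-1.03, adjusted p = 0.00927). Of the negative regulators Tnip1 and Cyld rose. Il1rl1 passed the filter only through 12-week KO libraries (112 counts in CD11b-high KO, 1 in WT cells), and its call is not read as a result.

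Between CD11b-high and CD11b-low KO cells, Itgam, the gene behind the sort, rose to 60.2 ± 28.9 CPM in CD11b-high against 4.61 ± 1.58 CPM in CD11b-low cells (log2 fold change 3.71, adjusted p = 0.00102). Ccl4 (3.57, adjusted p = 0.00527), Acod1 (3.04, adjusted p = 0.0133) and Usp18 (2.34, adjusted p = 0.0325) were the only other genes of these lists to pass. No adaptor, chaperone, protease, transcription factor or negative regulator of the lists passed in that comparison. These calls come from the fit of all 15 libraries, which leaves out the pairing by replicate number. The replicate block called more genes between these libraries (above), and list genes are not given with it.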

How the data were processed

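RNA-seq of sorted alveolar macrophages gave 15 libraries in 5 groups of 3, each from 2 to 3 pooled mice, with 3 independent replicates per group per the series' design text. It does not say whether CD11b-high and CD11b-low KO libraries of 1 number came from the same mice. The deposited values are raw counts per gene, which the authors made with STAR and featureCounts (Subread), per the submitters' processing notes; versions, genome build and strand setting are not given in the sources used here. Repeated rows (270, of 160 genes, with identical counts) were dropped, which left 40510 genes, of which 25100 had a count.

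Counts were tested with edgeR 4.0.16 (R 4.3.3): TMM scaling, filterByExpr (minimum count 10, minimum total 15; 13284 genes), and robust quasi-likelihood fits with 1 coefficient per group over all 15 libraries (10 residual degrees of freedom). All tests were two-sided, with Benjamini-Hochberg adjustment over all genes and a threshold of 0.05. CPM per kb used GENCODE M21 union exon lengths (GRCm38), and promoter windows came from RefSeq, where 3 members' sequences were taken. Marker sums are CPM of the library total without TMM. Intervals are 95% intervals. The p-values measure the spread between pools. Counting floors and exact intervals cover counting error only, since reads are not independent molecules.

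The alternatives were DESeq2 1.42.0 and its size factors, limma 3.58.1 voom with quality weights, no filter, only the groups compared, a replicate block in a fit of only those groups, leaving out each library, and libraries with Xist at or under 1 CPM. Replicate numbers paired CD11b-high with CD11b-low KO libraries: deviations from group means correlated at 0.563, 0.474 and 0.150 for the 3 pairs. Between KO and WT CD11b-low libraries at 12 weeks the correlations were 0.469, 0.0517 and 0.33. There KO replicate 2 was closest to WT replicate 3, so pairing is not settled. In the other comparisons the replicate numbers did not match throughout. No libraries of 1 group agreed within sampling noise (chi-square per degree of freedom at least 20.1). The code was tested on simulated data. All members were to be named, with list genes named where they passed and likeness given for the 3 eligible members of widest span in group means (5 genes each, among 7107). Members, lists and tests were chosen with earlier results of these data known. One marker gene is not reported here.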

Additional observations from a re-analysis of the deposited data

How the results depend on the processing

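Over 57 results on members and 733 alternatives, 645 kept direction and side of the threshold, 38 lost the call, 16 gained it and 34 changed sign, none of a called value. The causes were not tested. Tlr1 in CD11b-high KO over WT is among the 57 and is not read as a result, since it entered the filter through that group. DESeq2 called 864 genes (608 higher, 256 lower) against 412 (346 higher, 66 lower) for KO over WT at 12 weeks, 22 against 13 at 4 weeks, 274 against 92 for CD11b-high over CD11b-low, 1679 against 915 for age in KO and 151 against 33 for the interaction. Limma voom called 165 for CD11b-high over CD11b-low, 2640 for age in KO and 3968 against 2282 for age in WT. With no filter the counts were 1090, 73, 533, 1395 and 321 in the order given for DESeq2. With only the groups compared they were 189, 4 and 18 for the first 3 of these, 793 against 1970 for CD11b-high KO over WT, 1646 for age in KO and 1123 for age in WT. The replicate block, also fitted on only the groups compared, gave 655 for KO over WT at 12 weeks against 189 without the block. It gave 252 against 18 for CD11b-high over CD11b-low, 896 against 793 for CD11b-high KO over WT and 487 against 1123 for age in WT.

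Members called for age in KO were 1 by DESeq2, voom and the block and 2 with no filter, against 0. For the interaction they were 1 by DESeq2, voom and no filter, against 0. With only the groups compared they were 0 against 2 for KO over WT at 12 weeks and 3 against 5 for age in WT, and with the block 2 for age in WT. For CD11b-high KO over WT no count of members is given for these settings, since Tlr1 entered the filter through the CD11b-high group. Beyond CD11b classes the replicate numbers were not shown to pair libraries; with the block Tlr7 had an adjusted p of 0.0684, Tlr6 0.00934 and Tlr13 9.6e-04 for KO over WT at 12 weeks.

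Leaving out 1 library gave 230 to 426 genes for KO over WT at 12 weeks, 4 to 15 at 4 weeks, 2 to 247 for CD11b-high over CD11b-low, 952 to 2099 for CD11b-high KO over WT, 235 to 1305 for age in KO, 1069 to 2528 for age in WT and 3 to 35 for the interaction. Members called ran from 0 to 4 for KO over WT at 12 weeks, 0 to 1 for age in KO and 2 to 5 for age in WT. For CD11b-high KO over WT they ran from 2 to 6, with Tlr1 among the members counted. That range is not read as a result, since Tlr1 entered the filter through the CD11b-high group.

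No sign change was of a called value. For age in KO, Tlr7 was 0.05 by DESeq2 and its size factors, 0.00 by voom and no filter and 0.01 with only the groups compared. Tlr13 at 4 weeks was 0.05 by voom, and Tlr4 between CD11b classes was 0.02 with the block. Without 1 library, log2 fold changes ran from -0.17 to 0.49 for Tlr5 in KO over WT at 12 weeks. At 4 weeks they ran from -0.16 to 0.01 (Tlr4), -0.14 to 0.05 (Tlr6), -0.03 to 0.14 (Tlr7) and -0.23 to 0.13 (Tlr13). Between CD11b classes they ran from -0.40 to 0.15 (Tlr2), -0.59 to 0.46 (Tlr4), -0.23 to 0.42 (Tlr6) and -0.39 to 0.16 (Tlr8). For age in KO they ran from -0.18 to 0.36 (Tlr2), -0.88 to 0.17 (Tlr4), -0.09 to 0.57 (Tlr6), -0.12 to 0.14 (Tlr7) and -0.14 to 0.29 (Tlr13). For age in WT Tlr2 ran from -0.42 to 0.00, and for the interaction Tlr2 ran from -0.02 to 0.53 and Tlr5 from -0.07 to 0.61. Depth limits Tlr1 and Tlr9, and 3 pools a group limit the rest.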
